A study of Arabidopsis thaliana with 8 samples.

Results

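The genes described here are 35 cell cycle loci of Arabidopsis thaliana, chosen by locus identifier from the 64512 loci of the deposited table, of which 33323 are gene loci. They comprise 8 B-type, 3 A-type and 5 D-type cyclins. To these come 4 B-type cyclin-dependent kinases (CDKs), the A-type kinase CDKA;1 and 4 KRP inhibitors of CDKs. There are 2 CDC20 and 2 CCS52A activators of the anaphase-promoting complex and 3 Aurora kinases. The others are the syntaxin KNOLLE and the transcription factors MYB3R1 and MYB3R4. RNA was sequenced from whole wild type seedlings of the Columbia ecotype, labelled 7 days old, with 2 libraries in each of 4 groups. CTRL was the untreated control. LHS seedlings were kept at 37 °C for 30 h. LHSR12 and LHSR84 seedlings had the same heat and then 12 h or 84 h at 22 °C. By the labels no group carries a mutation or transgene. Whether a group's libraries came from separate cultures is not in the labels, and the p-values then measure the spread between these samples alone, which may be technical. Neither age at harvest nor hour of harvest is labelled. The effects of heat, of recovery, of plant age and of the hour cannot be told apart.

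Each value is a number of scaled reads, which is the read number of a locus divided by a factor of its library. A gene is called, and is said to have risen or fallen, where limma gave an adjusted p below 0.05 (Benjamini-Hochberg over all 27638 loci tested, on log2 of the value plus 1). All 35 genes passed the filter on low values, a mean of at least 1 scaled read. Fold changes are on that log2 scale, with the standard error (SE), and every adjusted p given below is from limma unless another tool is named. Where another setting or a left-out library changed a call on one of the 35 genes, its log2 fold change and adjusted p stand in brackets, and the range is that of the adjusted p over all alternatives tried.

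Cyclins bind CDKs and set when these kinases act. D-type cyclins with CDKA;1 act at the entry into the cycle, A-type cyclins during DNA replication and after it, and B-type cyclins with CDKA;1 and the plant-specific CDKB kinases at mitosis. MYB3R transcription factors bind the mitosis-specific activator (MSA) element in promoters of mitotic genes and activate or repress them. The anaphase-promoting complex, with a CDC20 or CCS52A activator, marks mitotic cyclins for destruction, and KRP proteins inhibit CDK complexes. In seedlings most division takes place in the meristems and in young leaves.

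Most of the 35 genes were lower than the control at the end of the heat and after 12 h at 22 °C, and none was called lower than the control after 84 h. In LHS, 22 of the 35 genes fell and 6 rose, against 33.2% and 34.8% of the 24624 gene loci tested. Their median log2 fold change was −0.94, and that of all gene loci was 0.033. In LHSR12, 24 fell and 3 rose against CTRL, where 21.7% of gene loci fell and 24.4% rose. The median there was −1.37, beside 0.047 over gene loci. In LHSR84, none fell and 1 rose (KRP6), with 5.32% of gene loci lower and 8.94% higher. Those shares rest on 1311 and 2201 gene loci, and fell to 453 and 952 without LHSR84 replicate 1, to 407 and 1050 without LHSR84 replicate 2 and to 43 and 233 in a fit of only the 2 groups compared. Without any one of the LHS and LHSR12 libraries 759 to 767 gene loci were lower. None of the 35 lower is thus near the share of all gene loci called lower there. Of the 35, 28 had a log2 fold change below 0, and their median was −0.20, beside −0.020 over gene loci. At an unadjusted limma p under 0.05, 7 were lower and 2 higher in LHSR84, and edgeR and DESeq2 on the recovered reads of 7 libraries also called none lower and 1 higher. Without CTRL replicate 1, 1 gene was called lower, and without either LHSR84 replicate none was called higher. These comparisons share the CTRL libraries.

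Between the end of heat and 12 h of recovery, 13 of the 35 genes fell and 8 rose. Of all gene loci, 31.6% fell and 32.3% rose, so that the share of the 35 that fell is near that of all gene loci. Of those that fell, CYCB2;2, CDKB2;1, CDC20.1 and AUR2 had also fallen in LHS against CTRL, and AUR3, MYB3R1, CYCD3;1, CYCD3;3 and CYCD2;1 had risen there. Both comparisons share the LHS libraries. From 12 h to 84 h of recovery, 23 genes rose and 4 fell, where 17.9% of gene loci rose and 19.3% fell. Those 4397 and 4759 gene loci became 2459 and 2495 without LHSR12 replicate 1, 2880 and 2823 without LHSR12 replicate 2, 2730 and 2846 without LHSR84 replicate 1, and 2744 and 2890 without LHSR84 replicate 2. The median of the 35 was 1.19, beside −0.060 over gene loci. Without LHSR12 replicate 1, 2 genes fell in this last comparison in place of 4. With each library scaled on its gene loci, the median over gene loci in LHSR12 moved to 0.229 against CTRL and 0.272 against LHS. The share of calls that were higher went from 52.9% to 65.5% and from 50.6% to 62.4%, and in LHSR84 against CTRL from 62.7% to 74.4%. The 35 genes were then 20 lower and 4 higher in LHSR12 against CTRL, and 10 lower and 11 higher against LHS. The mean of CTRL was the highest of the 4 groups for 24 genes, and the lowest mean was that of LHSR12 for 19 genes and that of LHS for 13. In bulk RNA, fewer dividing cells and less RNA per cell cannot be told apart.

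**Figure D1:**
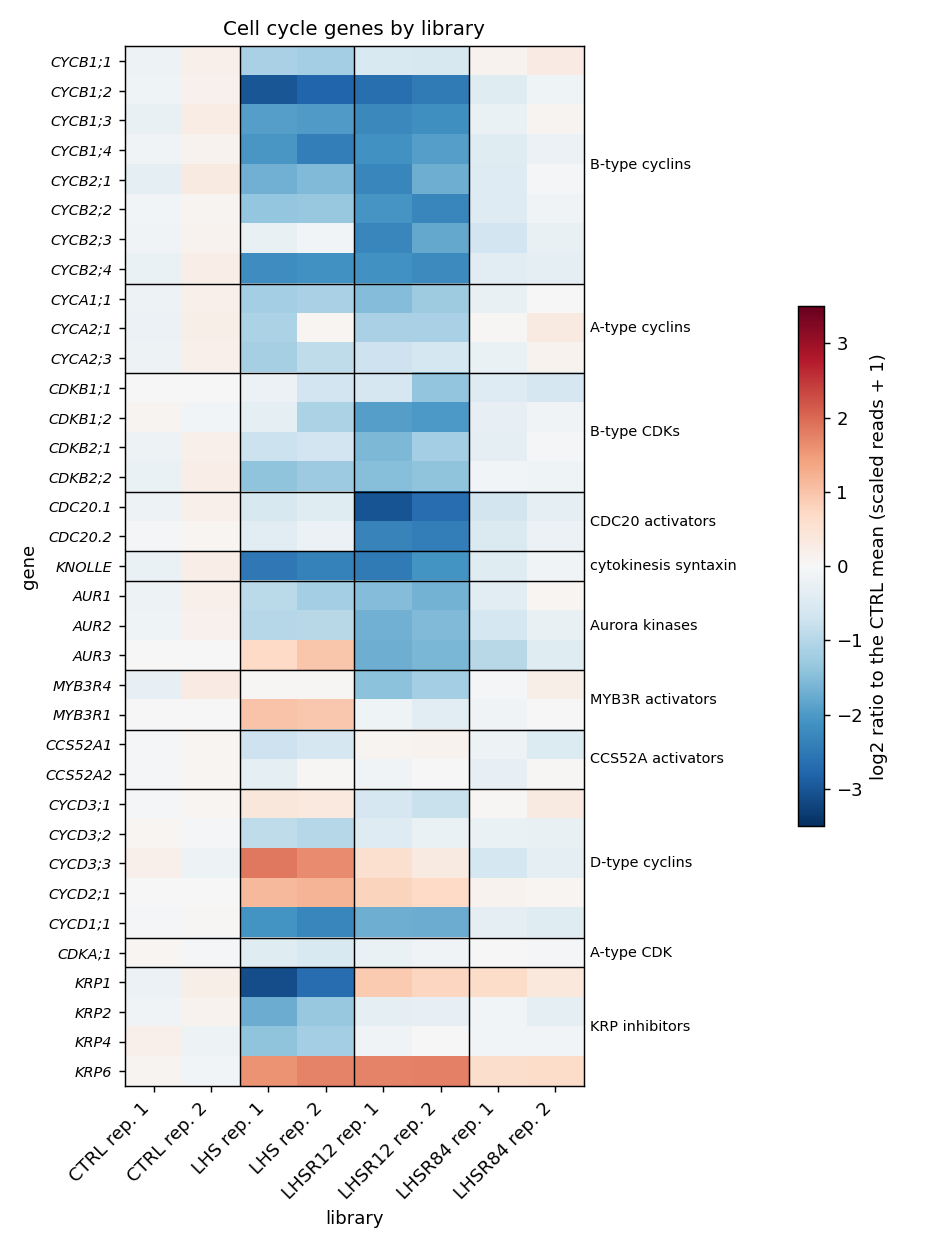
Log2 ratio of each gene to the CTRL mean (scaled reads plus 1) in each of the 8 libraries, with genes in rows by role and libraries in columns. Most mitotic rows are below the control in the LHS and LHSR12 libraries and near it in LHSR84, while KRP6, CYCD2;1 and CYCD3;3 are above it in LHS.

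Depth was 18.9 M to 28.3 M reads (M for 1e6) at gene loci in the 7 libraries whose read numbers were recovered. The read numbers of LHS replicate 1 were left out. The heat-induced chaperone gene HSP101 was at 265 and 462 scaled reads in CTRL, 36972 and 41071 in LHS, 4118 and 3698 in LHSR12 and 724 and 986 in LHSR84. CTRL replicate 2 was above replicate 1 for 28 of the 35 genes (median log2 difference 0.26), while the median over gene loci was 0. In LHSR84, replicate 2 was above replicate 1 for 25 genes, with the same median of 0.26. The same held for 22 genes in LHS and 22 in LHSR12, with smaller medians of 0.067 and 0.063. Replicate 2 was thus the higher for most of the 35 genes in all 4 groups. Shoot and root marker genes were both detected, with WUS and CLV3 of the shoot stem cell niche near 0 in all groups (at most 7.10 and 1.55 scaled reads). The libraries are strand-specific, but whether counting used the strand is not stated. Of the 35 genes, 13 overlap a gene on the other strand. CCS52A2 and CYCD3;1 overlap a gene on their own strand (AT4G05930 and AT4G34150), so reads there could be split.

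The 8 B-type cyclin genes encode the regulatory subunits of the mitotic kinases. In LHS 7 of the 8 fell, in LHSR12 all 8 fell against CTRL, and from 12 h to 84 h all 8 rose. CYCB1;2 (AT5G06150, chr5:1859279-1861703, minus strand, TAIR10.1) was at 1103 and 1344 scaled reads in CTRL, 153 and 175 in LHS, 193 and 217 in LHSR12 and 900.3 and 1087 in LHSR84. Its LHS and LHSR12 libraries lie far below both others, which do not overlap each other. LHS was at 13.4% of the CTRL mean (log2 fold change −2.88, SE 0.16, limma adjusted p = 1.59e-06) and LHSR12 at 16.8% (log2 fold change −2.56, SE 0.16, limma adjusted p = 7.68e-06). From LHS to LHSR12 it was not called (0.32 (limma adjusted p = 0.109)), but passed higher with scaling on gene loci (0.59, adjusted p = 0.0145) and with the replicate block (0.32, adjusted p = 0.0477) (range 0.0145 to 0.559). From LHSR12 to LHSR84 it rose 4.81-fold (adjusted p = 3.52e-05).

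CYCB1;1 (AT4G37490, chr4:17621886-17624308, minus strand), which is also known to be induced by DNA damage, had the smallest fall of the 4 B1 cyclins in LHS and in LHSR12, and rose between them; whether it differed from the others was not tested. It was at 332 and 428 scaled reads in CTRL, 171 and 164 in LHS, 259 and 254 in LHSR12 and 408 and 457 in LHSR84. Its 2 CTRL and 2 LHSR84 libraries overlap, and LHSR12 lies between them and LHS. It fell in LHS (log2 fold change −1.16, SE 0.16, limma adjusted p = 0.000248) and rose from LHS to LHSR12 (log2 fold change 0.61, SE 0.16, limma adjusted p = 0.00977). The ratio of CYCB1;1 to CYCB1;2 was 0.301 and 0.318 in CTRL, 1.12 and 0.936 in LHS, 1.34 and 1.17 in LHSR12 and 0.453 and 0.420 in LHSR84. Every LHS and LHSR12 library is above every CTRL and LHSR84 library in this ratio. The ratios of gene pairs given here and for other genes were not tested.

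CYCB1;3 (AT3G11520) was at 196 and 286 scaled reads in CTRL, 62.1 and 59.8 in LHS, 49.0 and 52.6 in LHSR12 and 202 and 252 in LHSR84. Its 4 LHS and LHSR12 libraries are all far below those of CTRL and LHSR84, and the latter overlap. The log2 fold change was −1.94 (limma adjusted p = 0.000141) in LHS and −2.20 (limma adjusted p = 0.000159) in LHSR12. CYCB1;4 (AT2G26760) was at 764 and 912 scaled reads in CTRL, 204 and 156 in LHS, 193 and 220.4 in LHSR12 and 624 and 722 in LHSR84. Its log2 fold changes in LHS and LHSR12 were −2.22 (limma adjusted p = 1.02e-05) and −2.01 (limma adjusted p = 4.41e-05). From LHS to LHSR12 neither was called, at −0.26 (limma adjusted p = 0.379) and 0.21 (limma adjusted p = 0.33).

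Of the B2 cyclins, CYCB2;2 and CYCB2;3 fell from LHS to LHSR12, and CYCB2;1 and CYCB2;4 were not called there. CYCB2;3 (AT1G20610, chr1:7134659-7137828, minus strand) was at 830.3 and 990.1 scaled reads in CTRL, 759 and 847 in LHS, 185 and 264 in LHSR12 and 574 and 762 in LHSR84. Its CTRL and LHS libraries overlap, and LHSR12 is far below all others. It was not called in LHS (log2 fold change −0.18, SE 0.20, limma adjusted p = 0.462), fell in LHSR12 against CTRL (log2 fold change −2.03, SE 0.20, limma adjusted p = 9.04e-05), and fell from LHS to LHSR12 (log2 fold change −1.85, SE 0.20, limma adjusted p = 7.78e-05). Its closest relative, CYCB2;4 (AT1G76310), was already low in LHS, at 828 and 1163 scaled reads in CTRL, 215 and 227 in LHS, 224 and 209 in LHSR12 and 753 and 783 in LHSR84. CYCB2;4 had a log2 fold change of −2.14 (limma adjusted p = 9.11e-06) in LHS and −0.031 (limma adjusted p = 0.886) from LHS to LHSR12. The ratio of CYCB2;3 to CYCB2;4 was 1.00 and 0.852 in CTRL, 3.53 and 3.73 in LHS, 0.826 and 1.26 in LHSR12 and 0.763 and 0.974 in LHSR84, so the LHS libraries stand apart from the other 6.

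CYCB2;2 (AT4G35620) fell in steps, at 592 and 673 scaled reads in CTRL, 246 and 253 in LHS, 150.2 and 129.9 in LHSR12 and 458 and 577 in LHSR84. No groups overlap, and LHSR84 lies just below CTRL. It was lower in LHS by 1.34 and again from LHS to LHSR12 by 0.83 on the log2 scale (adjusted p = 0.00011 and 0.00194). CYCB2;1 (AT2G17620) was at 182 and 286 scaled reads in CTRL, 70.1 and 78.1 in LHS, 46.0 and 69.6 in LHSR12 and 167 and 221 in LHSR84. LHS and LHSR12 are below the rest, with log2 fold changes of −1.61 (limma adjusted p = 0.00149) in LHS and −1.99 (limma adjusted p = 0.000914) in LHSR12. The fall of CYCB1;1 in LHSR12 (log2 fold change −0.55, SE 0.16, limma adjusted p = 0.0213) was lost with scaling on gene loci (−0.37, adjusted p = 0.123), in a fit of only the 2 groups compared (−0.55, adjusted p = 0.0846), without CTRL replicate 2 (−0.37, adjusted p = 0.0958), without LHSR12 replicate 1 (−0.57, adjusted p = 0.0858) and without LHSR12 replicate 2 (−0.54, adjusted p = 0.0941), with adjusted p from 0.00792 to 0.123 over the alternatives. Its rise from LHS to LHSR12 was lost with DESeq2 (0.62, adjusted p = 0.0692), without LHS replicate 2 (0.58, adjusted p = 0.0586) and without LHSR12 replicate 1 (0.59, adjusted p = 0.0538), with adjusted p from 0.00279 to 0.0692. Its rise from LHSR12 to LHSR84 (0.75, adjusted p = 0.00737) was lost without LHSR12 replicate 1 (0.76, adjusted p = 0.0524), without LHSR12 replicate 2 (0.73, adjusted p = 0.0528) and without LHSR84 replicate 2 (0.67, adjusted p = 0.0618), with adjusted p from 0.00306 to 0.0618.

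Since MYB3R factors act through the MSA element, its 5-base core AACGG was searched on both strands in the 250 bases upstream of each annotated start. Of the 35 promoters, 16 (45.7%) held it, beside 5645 of 27443 promoters of protein-coding genes (20.6%). The windows were taken without regard to neighbouring genes. Those of CDKB1;1, CDKB2;1, CDC20.1, AUR3, MYB3R4, MYB3R1 and CYCD3;1 reach into one. Of these, MYB3R4 and CYCD3;1 are among the 16. At least 2 cores were in 10 of the 35 (28.6%), beside 3.62% of all promoters. Of the 8 B-type cyclins, 6 held the core and all 6 had at least 2. The promoters of 4 B-type cyclins and of the inhibitor KRP1 are shown because they carry 3 or more cores and their RNAs followed unlike courses. They are from the RefSeq TAIR10.1 assembly, read 5′ to 3′ on the strand of the gene and ending at the base before the annotated start, with AACGG or its reverse complement CCGTT in capitals.
CYCB1;1 (chr4:17624309-17624558, minus strand): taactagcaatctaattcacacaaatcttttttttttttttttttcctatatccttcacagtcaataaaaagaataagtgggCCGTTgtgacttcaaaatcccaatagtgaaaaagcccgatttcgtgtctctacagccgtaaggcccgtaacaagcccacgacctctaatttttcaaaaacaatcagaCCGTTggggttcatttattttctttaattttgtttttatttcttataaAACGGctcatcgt
CYCB1;2 (chr5:1861704-1861953, minus strand): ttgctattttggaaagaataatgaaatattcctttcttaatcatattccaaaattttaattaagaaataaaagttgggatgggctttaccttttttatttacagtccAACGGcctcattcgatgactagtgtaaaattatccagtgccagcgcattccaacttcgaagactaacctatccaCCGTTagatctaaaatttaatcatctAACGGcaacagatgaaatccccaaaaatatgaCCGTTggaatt
CYCB1;3 (chr3:3627274-3627523, minus strand): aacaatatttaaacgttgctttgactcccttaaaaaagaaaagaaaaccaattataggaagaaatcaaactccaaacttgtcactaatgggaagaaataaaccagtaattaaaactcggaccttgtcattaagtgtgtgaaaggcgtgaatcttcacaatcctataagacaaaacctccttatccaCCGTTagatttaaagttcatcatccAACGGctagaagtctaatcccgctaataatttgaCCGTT
CYCB2;3 (chr1:7137829-7138078, minus strand): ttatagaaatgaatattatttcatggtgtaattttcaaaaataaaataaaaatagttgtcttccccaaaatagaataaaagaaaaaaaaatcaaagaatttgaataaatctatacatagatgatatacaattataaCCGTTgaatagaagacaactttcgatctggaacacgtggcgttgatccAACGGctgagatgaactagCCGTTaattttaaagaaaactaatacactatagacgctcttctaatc
KRP1 (chr2:9978091-9978340, minus strand): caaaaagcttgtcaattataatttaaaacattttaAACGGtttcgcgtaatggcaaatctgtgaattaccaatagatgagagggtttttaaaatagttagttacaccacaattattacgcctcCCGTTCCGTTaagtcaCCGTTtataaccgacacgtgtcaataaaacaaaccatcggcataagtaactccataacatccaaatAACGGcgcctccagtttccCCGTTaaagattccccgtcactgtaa

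CYCB1;2 held 4 cores and KRP1 held 6, while CYCB1;1, CYCB1;3 and CYCB2;3 held 3 each. CYCB1;1, which fell least of the B1 cyclins in LHSR12, and CYCB2;3, which was not called in LHS, held as many cores as CYCB1;3, which was low in both groups. Of the 24 genes that fell in LHSR12 against CTRL, 13 held a core, as did 1 of the 3 that rose and 2 of the 8 not called. The share over all 35 was 45.7%. Over all gene loci the core was in 22.0% of those that fell and 21.6% of those not called. From LHSR12 to LHSR84, 14 of the 23 genes that rose held a core, 2 of the 8 not called and none of the 4 that fell. Over all gene loci that fell there, 21.2% did, so that none of 4 is little to go by. Whether the core goes with the calls was not tested. CYCB1;4 and CYCB2;4, which fell in both groups, held none in this window. An E2F site (TTTCCCGC, TTTGGCGC, TTTGCCGC or TTTCGCGC) was in 1 promoter, that of CYCD3;3 (2.86%, beside 1.41% of all). A heat shock element, searched as GAANNTTC, was in 4, those of CYCB1;3, CYCB1;4, CDKB1;1 and CCS52A2 (11.4%, beside 9.55% of all). None of these searched motifs overlaps another in the printed sequences. A match to such letters is a description of the sequence and not a bound site.

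**Figure D2:**
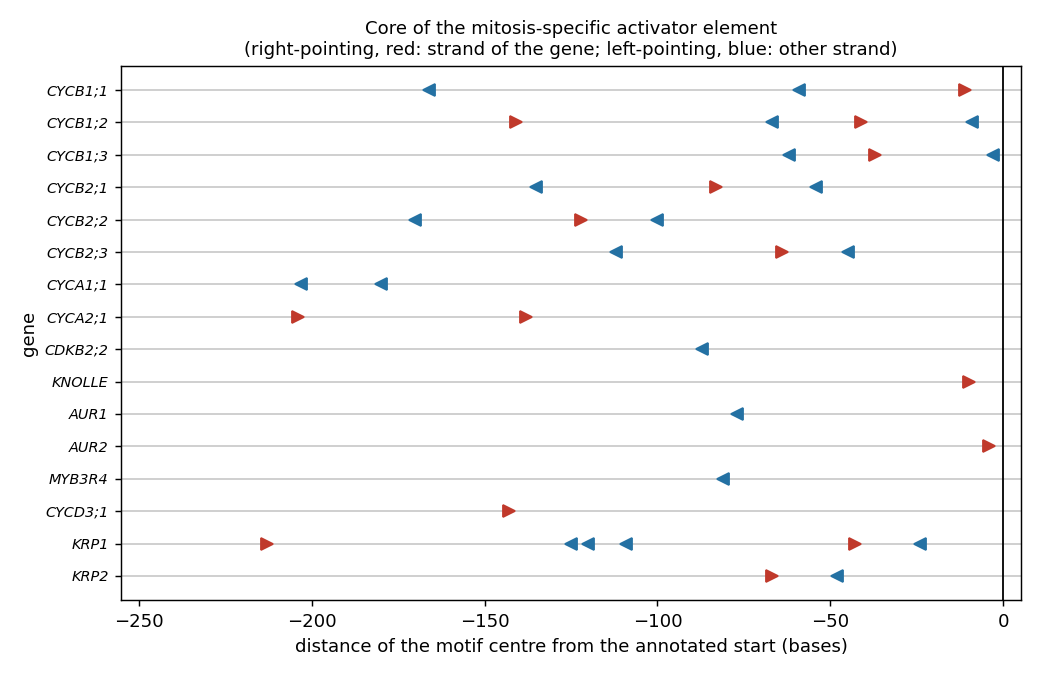
Positions of the AACGG core in the 250 bases upstream of the annotated start (x axis, bases from the start to the centre of the match) for the 16 of 35 genes that hold it, with triangles pointing right for the strand of the gene and left for the other. CYCB1;3, CYCB2;1, CYCB2;2 and CYCB2;3 each have 3 cores in alternating orientation. The 4 cores of CYCB1;2 alternate too, and KRP1 has 6.

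Of the A-type cyclins, CYCA1;1 (AT1G44110) was at 238 and 300.4 scaled reads in CTRL, 116 and 122 in LHS, 91.9 and 112 in LHSR12 and 223 and 272 in LHSR84. Its CTRL and LHSR84 libraries overlap and all LHS and LHSR12 libraries are below them, with log2 fold changes of −1.16 (limma adjusted p = 0.000981) in LHS and −1.39 (limma adjusted p = 0.000735) in LHSR12. CYCA2;3 (AT1G15570), which works with CDKB1;1 to restrain endoreduplication, was at 534 and 695 scaled reads in CTRL, 270.4 and 328 in LHS, 368 and 398 in LHSR12 and 516 and 658 in LHSR84. It fell by 1.03 in LHS (adjusted p = 0.00104). CYCA2;1 (AT5G25380) had the lowest level of the 35 per length of transcript, 24.4 scaled reads per kb in CTRL, beside 1260.1 for KNOLLE, the highest. It was at 40.6 and 53.6 scaled reads in CTRL, 21.0 and 48.7 in LHS, 20.7 and 20.9 in LHSR12 and 48.4 and 58.2 in LHSR84. Its LHS libraries spread over more than 2-fold. It was not called against CTRL in LHS (−0.53, adjusted p = 0.298) or LHSR12 (−1.13, adjusted p = 0.0578).

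Some calls on A-type cyclins depended on libraries or settings. From LHS to LHSR12, CYCA2;1 was not called (−0.60 (limma adjusted p = 0.244)) but passed with edgeR (−1.21, adjusted p = 0.0351) and without LHS replicate 1 (−1.19, adjusted p = 0.0322) (adjusted p from 0.0322 to 0.974 over the alternatives). CYCA2;3 was not called there either (0.36 (limma adjusted p = 0.115)) but passed higher with scaling on gene loci (0.63, adjusted p = 0.0191) and with the replicate block (0.36, adjusted p = 0.04) (range 0.0191 to 0.589). CYCA2;1 passed in LHS without LHS replicate 2 (−1.11, adjusted p = 0.0384) (adjusted p from 0.0384 to 0.991 over the alternatives). In LHSR12 against CTRL it passed with a minimum mean of 10 (−1.13, adjusted p = 0.0449), with the replicate block (−1.13, adjusted p = 0.0451), with edgeR (−1.19, adjusted p = 0.0239), without LHS replicate 1 (−1.13, adjusted p = 0.0256) and without LHS replicate 2 (−1.13, adjusted p = 0.0271) (range 0.0239 to 0.191). Its rise from LHSR12 to LHSR84 (log2 fold change 1.31, SE 0.42, limma adjusted p = 0.0405) was lost with a pseudocount of 0.1 (1.35, adjusted p = 0.055), without the filter on low values (1.31, adjusted p = 0.0614), without LHSR12 replicate 1 (1.31, adjusted p = 0.164), without LHSR12 replicate 2 (1.32, adjusted p = 0.151), without LHSR84 replicate 1 (1.44, adjusted p = 0.109) and without LHSR84 replicate 2 (1.18, adjusted p = 0.172) (range 0.0142 to 0.172). The fall of CYCA2;3 in LHSR12 (log2 fold change −0.67, SE 0.18, limma adjusted p = 0.0162) was lost with scaling on gene loci (−0.49, adjusted p = 0.0654), in a fit of only the 2 groups compared (−0.67, adjusted p = 0.0592), without CTRL replicate 2 (−0.48, adjusted p = 0.0809), without LHSR12 replicate 1 (−0.61, adjusted p = 0.118) and without LHSR12 replicate 2 (−0.73, adjusted p = 0.0759) (range 0.00414 to 0.118). Its rise from LHSR12 to LHSR84 (log2 fold change 0.61, SE 0.18, limma adjusted p = 0.0304) was lost without the filter on low values (0.61, adjusted p = 0.0503), with scaling on gene loci (0.54, adjusted p = 0.0556), in a fit of only the 2 groups compared (0.61, adjusted p = 0.0536), without LHS replicate 1 (0.61, adjusted p = 0.0675), without LHS replicate 2 (0.61, adjusted p = 0.0677), without LHSR12 replicate 1 (0.55, adjusted p = 0.177), without LHSR12 replicate 2 (0.66, adjusted p = 0.113) and without LHSR84 replicate 2 (0.43, adjusted p = 0.197) (range 0.00903 to 0.197).

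The 4 CDKB genes all fell in LHSR12 against CTRL and 2 of them had fallen in LHS. CDKB2;1 (AT1G76540, chr1:28720328-28722550, minus strand) was at 779 and 999 scaled reads in CTRL, 526 and 551 in LHS, 298 and 388 in LHSR12 and 703 and 856 in LHSR84. Its libraries step down from CTRL to LHS to LHSR12 without overlap, and LHSR84 overlaps CTRL. Its log2 fold changes were −0.71 (limma adjusted p = 0.00675) in LHS, −1.37 (limma adjusted p = 0.000374) in LHSR12 and −0.66 (limma adjusted p = 0.0107) from LHS to LHSR12. CDKB2;2 (AT1G20930) was at 207 and 289.6 scaled reads in CTRL, 92.1 and 100.4 in LHS, 87.3 and 91.3 in LHSR12 and 228 and 219.9 in LHSR84. It was down already in LHS (−1.34 (limma adjusted p = 0.000483)) and not called from LHS to LHSR12 (−0.11 (limma adjusted p = 0.675)). CDKB1;2 (AT2G38620) was at 131 and 116 scaled reads in CTRL, 97.1 and 56.8 in LHS, 31.4 and 30.2 in LHSR12 and 102 and 113 in LHSR84. LHSR12 is the lowest group (log2 fold change −1.97, SE 0.30, limma adjusted p = 0.000878). It also fell from LHS to LHSR12 (−1.25 (limma adjusted p = 0.00602)) and was not called in LHS (−0.72 (limma adjusted p = 0.0573)). CDKB1;1 (AT3G54180) was at 171 and 173 scaled reads in CTRL, 150.2 and 109 in LHS, 113 and 65.7 in LHSR12 and 126 and 114 in LHSR84. LHSR12 replicate 2 is the lowest library. It fell in LHSR12 (log2 fold change −0.98, SE 0.29, limma adjusted p = 0.0225), and it was the CDKB gene not called from LHSR12 to LHSR84 (0.47 (limma adjusted p = 0.234)).

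The fall of CDKB2;1 in LHS was lost without LHS replicate 1 (−0.68, adjusted p = 0.0723) and without LHS replicate 2 (−0.75, adjusted p = 0.0575) (range 0.00146 to 0.0723), and its fall from LHS to LHSR12 with scaling on gene loci (−0.39, adjusted p = 0.108), without LHS replicate 1 (−0.69, adjusted p = 0.0732), without LHS replicate 2 (−0.63, adjusted p = 0.0961) and without LHSR12 replicate 1 (−0.47, adjusted p = 0.102) (range 0.00246 to 0.108). CDKB1;2 passed in LHS with a minimum mean of 10 (−0.72, adjusted p = 0.0481), with TMM scaling (−0.76, adjusted p = 0.0479), with scaling on gene loci (−0.81, adjusted p = 0.046), with edgeR (−1.14, adjusted p = 0.0132), with DESeq2 (−1.10, adjusted p = 0.0319) and without LHS replicate 1 (−1.11, adjusted p = 0.0136) (range 0.0132 to 0.249), and its fall from LHS to LHSR12 was lost with DESeq2 (−0.91, adjusted p = 0.0992) (range 0.00408 to 0.0992). The fall of CDKB1;1 in LHSR12 was lost with scaling on gene loci (−0.80, adjusted p = 0.0538), in a fit of only the 2 groups compared (−0.98, adjusted p = 0.104), without CTRL replicate 1 (−0.99, adjusted p = 0.0649), without CTRL replicate 2 (−0.97, adjusted p = 0.0657), without LHS replicate 1 (−0.98, adjusted p = 0.0508), without LHS replicate 2 (−0.98, adjusted p = 0.0502) and without LHSR12 replicate 2 (−0.59, adjusted p = 0.138) (range 0.0146 to 0.138). CDKB1;1 passed from LHS to LHSR12 without LHSR12 replicate 1 (−0.95, adjusted p = 0.0305) (range 0.0305 to 0.611).

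The CDC20 genes, neighbours on chromosome 4 whose transcripts are 89.0% identical over their aligned part, were at 70.0% and 80.8% of their CTRL means in LHS and at 13.8% and 19.0% in LHSR12. CDC20.1 (AT4G33270, chr4:16044169-16046937, minus strand) was at 1040.3 and 1355 scaled reads in CTRL, 797 and 880.3 in LHS, 145 and 186 in LHSR12 and 763 and 958 in LHSR84. Every other library is more than 4 times as high as the higher LHSR12 library. The log2 fold change was −2.85 in LHSR12 (SE 0.18, adjusted p = 9.87e-06), the largest fall of the 35 against CTRL in that group. From LHS to LHSR12 it was −2.34 (adjusted p = 1.35e-05). CDC20.2 (AT4G33260) was at 666 and 732 scaled reads in CTRL, 528 and 601 in LHS, 136 and 129 in LHSR12 and 493 and 609 in LHSR84. Its log2 fold changes were −2.39 (limma adjusted p = 7.45e-06) in LHSR12 and −2.08 (limma adjusted p = 7.94e-06) from LHS to LHSR12. In LHS, CDC20.1 was called lower (−0.50 (limma adjusted p = 0.0382)) and CDC20.2 was not (−0.31 (limma adjusted p = 0.0912)). The call on CDC20.1 in LHS was lost without the filter on low values (−0.50, adjusted p = 0.0636), with edgeR (−0.47, adjusted p = 0.118), with DESeq2 (−0.42, adjusted p = 0.19), in a fit of only the 2 groups compared (−0.50, adjusted p = 0.0734), without CTRL replicate 2 (−0.31, adjusted p = 0.203), without LHS replicate 1 (−0.43, adjusted p = 0.214), without LHS replicate 2 (−0.57, adjusted p = 0.121), without LHSR12 replicate 1 (−0.50, adjusted p = 0.0535) and without LHSR12 replicate 2 (−0.50, adjusted p = 0.0537) (range 0.00614 to 0.214). CDC20.2 passed in LHS with scaling on gene loci (−0.39, adjusted p = 0.047) (range 0.047 to 0.521).

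KNOLLE (AT1G08560, chr1:2709525-2711000, minus strand), the syntaxin that fuses vesicles into the cell plate, was at 1481 and 2012 scaled reads in CTRL, 303 and 337 in LHS, 312 and 407 in LHSR12 and 1290.2 and 1599.8 in LHSR84. Its LHS and LHSR12 libraries overlap at a low level, and its CTRL and LHSR84 libraries overlap at a high level. It fell in LHS (log2 fold change −2.43, SE 0.19, limma adjusted p = 1.02e-05) and LHSR12 (log2 fold change −2.27, SE 0.19, limma adjusted p = 3.7e-05) and rose from LHSR12 to LHSR84 (log2 fold change 2.01, SE 0.19, limma adjusted p = 0.000142). Per kb of transcript, KNOLLE had the highest level of the 35 in CTRL and in LHSR84 (1043), and CYCD2;1 did in LHS (1107) and LHSR12 (828).

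The Aurora kinases act at the spindle and cell plate (AUR1 and AUR2) or at centromeres (AUR3). AUR1 (AT4G32830) was at 385 and 496 scaled reads in CTRL, 226 and 192 in LHS, 152 and 139 in LHSR12 and 332 and 458 in LHSR84. AUR2 (AT2G25880) was at 374 and 459 scaled reads in CTRL, 207 and 209.9 in LHS, 128 and 142 in LHSR12 and 272 and 344 in LHSR84. Both fell in LHS, at −1.06 (limma adjusted p = 0.00169) and −0.99 (limma adjusted p = 0.00116), and in LHSR12 against CTRL, at −1.58 (limma adjusted p = 0.000375) and −1.61 (limma adjusted p = 0.000154). AUR3 (AT2G45490, chr2:18747509-18749215, minus strand) went the other way in the heat, at 165 and 169 scaled reads in CTRL, 270.4 and 328 in LHS, 50.6 and 54.1 in LHSR12 and 85.1 and 125 in LHSR84. Its LHS libraries are above, and its LHSR12 libraries below, all the rest. It rose in LHS (log2 fold change 0.83, SE 0.23, limma adjusted p = 0.0125), and fell in LHSR12 against CTRL (log2 fold change −1.66, SE 0.23, limma adjusted p = 0.000608) and from LHS (log2 fold change −2.49, SE 0.23, limma adjusted p = 3.47e-05). The ratio of AUR3 to AUR1 was 0.430 and 0.342 in CTRL, 1.20 and 1.71 in LHS, 0.333 and 0.389 in LHSR12 and 0.256 and 0.274 in LHSR84.

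For AUR3, the rise in LHS was lost without LHS replicate 2 (0.69, adjusted p = 0.0946) (range 0.00871 to 0.0946), and its rise from LHSR12 to LHSR84 (0.97 (limma adjusted p = 0.0126)) was lost in a fit of only the 2 groups compared (0.97, adjusted p = 0.0689), without LHSR12 replicate 1 (0.92, adjusted p = 0.0842), without LHSR12 replicate 2 (1.02, adjusted p = 0.0608) and without LHSR84 replicate 2 (0.69, adjusted p = 0.0868) (range 0.0101 to 0.0868). AUR2 fell from LHS to LHSR12 (−0.63 (limma adjusted p = 0.0135)), which was lost with scaling on gene loci (−0.36, adjusted p = 0.135), with edgeR (−0.62, adjusted p = 0.0519), with DESeq2 (−0.67, adjusted p = 0.0691), without LHS replicate 1 (−0.64, adjusted p = 0.065), without LHS replicate 2 (−0.62, adjusted p = 0.0718) and without LHSR12 replicate 1 (−0.56, adjusted p = 0.0803) (range 0.00972 to 0.135). AUR1 was not called there (−0.52 (limma adjusted p = 0.0536)) but passed with a minimum mean of 10 (−0.52, adjusted p = 0.0479), in a fit of only the 2 groups compared (−0.52, adjusted p = 0.0446), without CTRL replicate 1 (−0.52, adjusted p = 0.041), without CTRL replicate 2 (−0.52, adjusted p = 0.0419), without LHSR84 replicate 1 (−0.52, adjusted p = 0.0471) and without LHSR84 replicate 2 (−0.52, adjusted p = 0.0486) (range 0.041 to 0.365).

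MYB3R4 (AT5G11510, chr5:3679748-3684884, plus strand) is an activator of mitotic genes, and MYB3R1 (AT4G32730, chr4:15790133-15796114, plus strand) can activate or repress them. MYB3R4 was at 454 and 688 scaled reads in CTRL, 575 and 571 in LHS, 207 and 245 in LHSR12 and 539 and 640.1 in LHSR84. Its LHS libraries lie between those of CTRL, and LHSR12 is below the rest. It was not called in LHS (0.036 (limma adjusted p = 0.888)), fell from LHS to LHSR12 (log2 fold change −1.34, SE 0.20, limma adjusted p = 0.000468) and rose to LHSR84 (log2 fold change 1.38, SE 0.20, limma adjusted p = 0.00118). MYB3R1 was at 715 and 689.8 scaled reads in CTRL, 1405 and 1357 in LHS, 637 and 534 in LHSR12 and 646 and 694 in LHSR84. It rose in LHS (log2 fold change 0.97, SE 0.12, limma adjusted p = 0.000112) and fell from LHS to LHSR12 (log2 fold change −1.24, SE 0.12, limma adjusted p = 3.52e-05). Against CTRL it was not called in LHSR12 (−0.27 (limma adjusted p = 0.094)), but passed without LHSR12 replicate 1 (−0.40, adjusted p = 0.0419) (range 0.0419 to 0.604).

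CCS52A1 and CCS52A2 activate the anaphase-promoting complex at the exit from the cycle and in endoreduplication. CCS52A1 (AT4G22910) was at 490.4 and 546 scaled reads in CTRL, 315 and 341 in LHS, 551 and 563 in LHSR12 and 456 and 369.9 in LHSR84. Its LHS libraries are below all others, and it fell in LHS (log2 fold change −0.66, SE 0.14, limma adjusted p = 0.00292) and rose from LHS to LHSR12 (log2 fold change 0.76, SE 0.14, limma adjusted p = 0.00146). It fell from LHSR12 to LHSR84 (−0.44 (limma adjusted p = 0.0382)), which was lost with TMM scaling (−0.40, adjusted p = 0.0535), with the replicate block (−0.44, adjusted p = 0.0539), with edgeR (−0.39, adjusted p = 0.0801), with DESeq2 (−0.42, adjusted p = 0.1), in a fit of only the 2 groups compared (−0.44, adjusted p = 0.0768), without LHS replicate 1 (−0.44, adjusted p = 0.0646), without LHS replicate 2 (−0.44, adjusted p = 0.0648), without LHSR12 replicate 1 (−0.45, adjusted p = 0.129), without LHSR12 replicate 2 (−0.42, adjusted p = 0.142) and without LHSR84 replicate 2 (−0.29, adjusted p = 0.223) (range 0.0253 to 0.223). CCS52A2 (AT4G11920) was at 221 and 240.3 scaled reads in CTRL, 181 and 235 in LHS, 212 and 227 in LHSR12 and 188 and 238 in LHSR84. All 4 groups overlap, and it was called in no comparison (adjusted p from 0.491 to 0.856).

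D-type cyclins moved in both directions, as gene loci did. In LHS 3 of the 5 rose and 2 fell, where 34.8% of gene loci rose and 33.2% fell. In LHSR12 1 rose and 3 fell against CTRL, beside 24.4% and 21.7% of gene loci. CYCD2;1 (AT2G22490, chr2:9553797-9556167, minus strand) was at 857 and 866 scaled reads in CTRL, 1902 and 1951 in LHS, 1490.0 and 1391 in LHSR12 and 937 and 903 in LHSR84. Its replicates are close, and LHS and LHSR12 lie clear of CTRL and LHSR84. It rose in LHS (log2 fold change 1.16, SE 0.093, limma adjusted p = 1.16e-05) and was still higher in LHSR12 (log2 fold change 0.74, SE 0.093, limma adjusted p = 0.000331). CYCD3;3 (AT3G50070, chr3:18565134-18566834, minus strand) rose most in the heat, at 339 and 263 scaled reads in CTRL, 1082 and 943 in LHS, 444 and 372 in LHSR12 and 196 and 239.7 in LHSR84. It rose 3.38-fold in LHS (log2 fold change 1.76, SE 0.18, limma adjusted p = 4.13e-05), fell to LHSR12 (−1.31 (limma adjusted p = 0.000266)) and fell again to LHSR84 (−0.90 (limma adjusted p = 0.005)).

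CYCD3;1 (AT4G34160), a cytokinin-responsive cyclin that keeps leaf cells dividing, was at 789.7 and 867 scaled reads in CTRL, 1095 and 1053 in LHS, 549 and 483 in LHSR12 and 858 and 1035 in LHSR84. LHS is above and LHSR12 below the other groups, with log2 fold changes of 0.38 (limma adjusted p = 0.0287) in LHS and −0.68 (limma adjusted p = 0.00278) in LHSR12. Its relative CYCD3;2 (AT5G67260) was at 848 and 761 scaled reads in CTRL, 437 and 401 in LHS, 585 and 679.8 in LHSR12 and 678 and 673 in LHSR84. It fell in LHS (log2 fold change −0.94, SE 0.12, limma adjusted p = 0.000183). The ratio of CYCD3;3 to CYCD3;2 was 0.399 and 0.346 in CTRL, 2.48 and 2.35 in LHS, 0.759 and 0.547 in LHSR12 and 0.289 and 0.356 in LHSR84. CYCD1;1 (AT1G70210, chr1:26439556-26443007, plus strand) was at 1321 and 1411 scaled reads in CTRL, 320.5 and 279.9 in LHS, 414 and 411 in LHSR12 and 1103 and 1013 in LHSR84, low in LHS and LHSR12. The gene fell in LHS (log2 fold change −2.18, SE 0.12, limma adjusted p = 1.39e-06) and LHSR12 (log2 fold change −1.72, SE 0.12, limma adjusted p = 1.18e-05) and rose to LHSR84 (log2 fold change 1.36, SE 0.12, limma adjusted p = 8.29e-05).

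**Figure D3:**
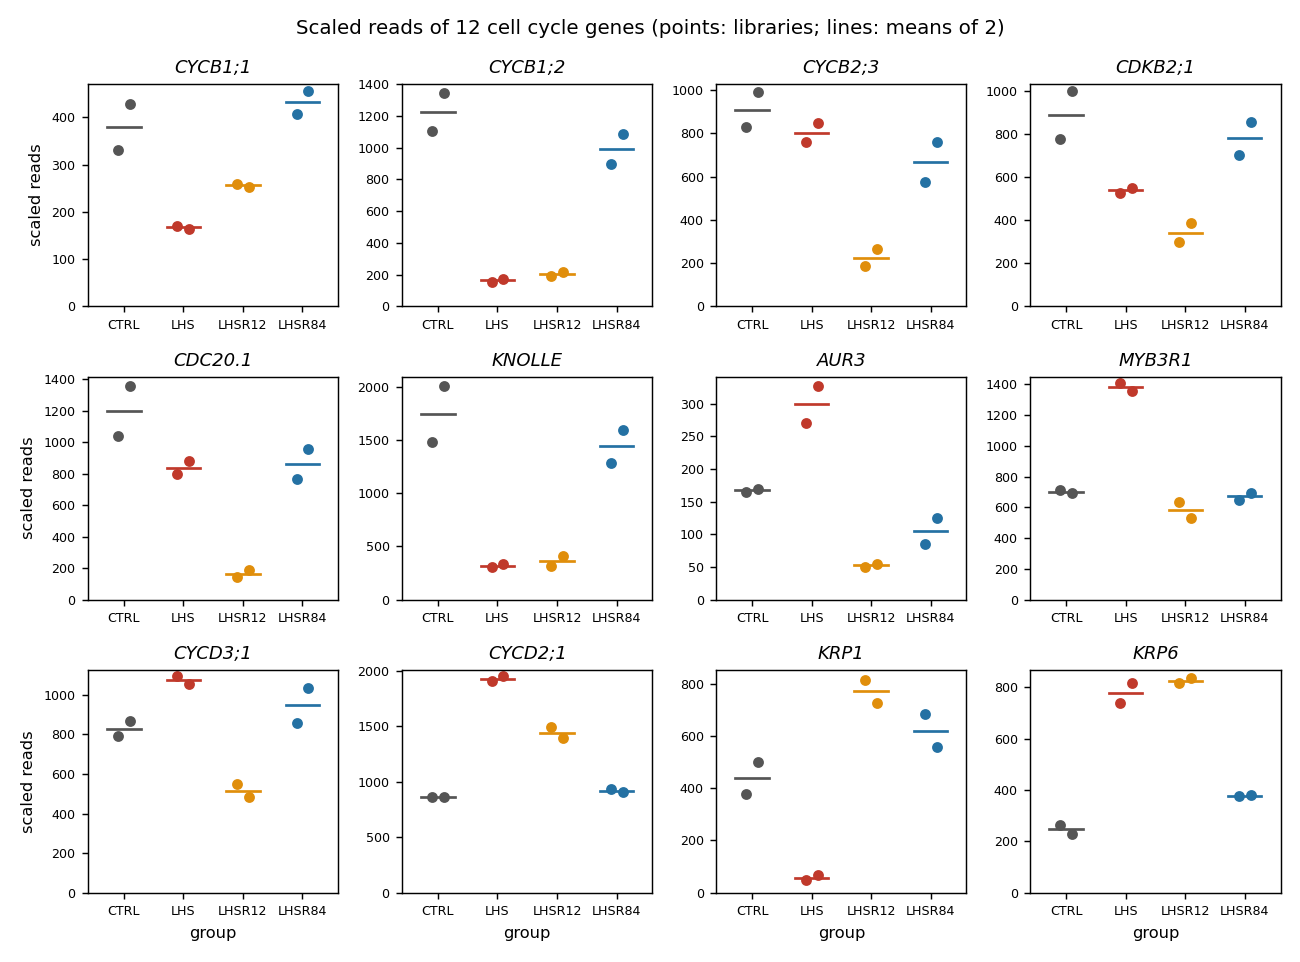
Scaled reads (y axis, from 0) of 12 of the 35 genes in the 2 libraries of each group (points) with their mean (line). CYCB1;2 and KNOLLE are low in LHS and LHSR12, CYCB2;3 and CDC20.1 are lowest in LHSR12 alone, and AUR3, MYB3R1, CYCD3;1 and CYCD2;1 are highest in LHS.

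Among D-type cyclins, the rise of CYCD3;1 in LHS was lost with scaling on gene loci (0.29, adjusted p = 0.103), with edgeR (0.32, adjusted p = 0.147), with DESeq2 (0.37, adjusted p = 0.158), without CTRL replicate 1 (0.31, adjusted p = 0.106), without LHS replicate 1 (0.35, adjusted p = 0.124) and without LHS replicate 2 (0.40, adjusted p = 0.0885) (range 0.0262 to 0.158). The fall of CYCD3;2 in LHSR12 (log2 fold change −0.35, SE 0.12, limma adjusted p = 0.0463) was lost without the filter on low values (−0.35, adjusted p = 0.0532), with scaling on gene loci (−0.16, adjusted p = 0.314), with the replicate block (−0.35, adjusted p = 0.0635), with edgeR (−0.35, adjusted p = 0.0647), with DESeq2 (−0.35, adjusted p = 0.11), in a fit of only the 2 groups compared (−0.35, adjusted p = 0.116), without CTRL replicate 1 (−0.27, adjusted p = 0.158), without LHS replicate 1 (−0.35, adjusted p = 0.0593), without LHS replicate 2 (−0.35, adjusted p = 0.0592), without LHSR12 replicate 1 (−0.24, adjusted p = 0.207), without LHSR84 replicate 1 (−0.35, adjusted p = 0.0765) and without LHSR84 replicate 2 (−0.35, adjusted p = 0.0765) (range 0.0399 to 0.314). CYCD3;3 was not called in LHSR12 against CTRL (0.44 (limma adjusted p = 0.0718)) but passed with scaling on gene loci (0.63, adjusted p = 0.0174) and without CTRL replicate 1 (0.63, adjusted p = 0.0315) (range 0.0174 to 0.331). Its fall to LHSR84 was lost without LHSR12 replicate 1 (−0.78, adjusted p = 0.0655) (range 0.00144 to 0.0655). The fall of CYCD2;1 from LHS to LHSR12 (−0.42 (limma adjusted p = 0.00423)) was lost with scaling on gene loci (−0.15, adjusted p = 0.219) (range 0.0032 to 0.219).

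CDKA;1 (AT3G48750), the main kinase partner of the D- and A-type cyclins, was at 945 and 851 scaled reads in CTRL, 674 and 618 in LHS, 759 and 817 in LHSR12 and 897 and 856 in LHSR84. It fell in LHS by 0.47 on the log2 scale (SE 0.11, adjusted p = 0.00469), its LHS libraries being below all others. From LHS to LHSR12 it rose (0.29 (limma adjusted p = 0.0479)), which was lost with the replicate block (0.29, adjusted p = 0.0588), with edgeR (0.37, adjusted p = 0.0738), with DESeq2 (0.33, adjusted p = 0.17), in a fit of only the 2 groups compared (0.29, adjusted p = 0.0509), without LHS replicate 2 (0.22, adjusted p = 0.15), without LHSR12 replicate 1 (0.34, adjusted p = 0.0667), without LHSR12 replicate 2 (0.23, adjusted p = 0.166), without LHSR84 replicate 1 (0.29, adjusted p = 0.0727) and without LHSR84 replicate 2 (0.29, adjusted p = 0.0725) (range 0.00262 to 0.17).

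In the heat, 3 of the 4 KRP inhibitor genes fell and 1 rose. KRP1 (AT2G23430, chr2:9976590-9978090, minus strand) was at 377 and 499 scaled reads in CTRL, 49.1 and 66.9 in LHS, 814 and 728 in LHSR12 and 683 and 556 in LHSR84. Its LHS libraries are far below all others and LHSR12 is the highest group. It fell in LHS (log2 fold change −2.90, SE 0.20, limma adjusted p = 5.78e-06), the largest fall of the 35, and rose 13.2-fold from LHS to LHSR12 (log2 fold change 3.72, SE 0.20, limma adjusted p = 2.78e-06), to above CTRL (log2 fold change 0.83, SE 0.20, limma adjusted p = 0.0111). The last of these calls was lost without CTRL replicate 1 (0.62, adjusted p = 0.06), without LHSR12 replicate 1 (0.75, adjusted p = 0.104) and without LHSR12 replicate 2 (0.91, adjusted p = 0.0603) (range 0.00131 to 0.104).

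KRP6 (AT3G19150, chr3:6616330-6617951, minus strand) was at 264 and 228 scaled reads in CTRL, 738 and 817 in LHS, 814 and 837 in LHSR12 and 375 and 382 in LHSR84. All 6 libraries after heat are above both CTRL libraries. It rose 3.15-fold in LHS (log2 fold change 1.66, SE 0.12, limma adjusted p = 7.18e-06), was higher than CTRL in LHSR12 too (log2 fold change 1.74, SE 0.12, limma adjusted p = 1.47e-05) and fell from there to LHSR84 (log2 fold change −1.12, SE 0.12, limma adjusted p = 0.000274). From LHS to LHSR12 it was not called (0.088 (limma adjusted p = 0.556)), but passed with scaling on gene loci (0.36, adjusted p = 0.0216) (range 0.0216 to 0.97). The ratio of KRP6 to KRP1 was 0.701 and 0.458 in CTRL, 15.0 and 12.2 in LHS, 1.00 and 1.15 in LHSR12 and 0.548 and 0.686 in LHSR84. KRP2 (AT3G50630) was at 249 and 301 scaled reads in CTRL, 81.1 and 109.5 in LHS, 218 and 226 in LHSR12 and 255 and 217 in LHSR84. KRP4 (AT2G32710) was at 1084 and 839.9 scaled reads in CTRL, 358 and 419.9 in LHS, 882 and 944 in LHSR12 and 892 and 886 in LHSR84. Both fell in LHS, at −1.53 (limma adjusted p = 0.000195) and −1.30 (limma adjusted p = 7.24e-05), and rose from LHS to LHSR12, at 1.23 (limma adjusted p = 0.000815) and 1.23 (limma adjusted p = 0.000118). Against CTRL neither was called in LHSR12, at −0.30 (limma adjusted p = 0.259) and −0.064 (limma adjusted p = 0.75).

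After 84 h at 22 °C, KRP6 was the gene still called against CTRL (log2 fold change 0.62, SE 0.12, limma adjusted p = 0.012), at 154% of the CTRL mean. That call was lost in a fit of only the 2 groups compared (0.62, adjusted p = 0.121), without LHSR84 replicate 1 (0.63, adjusted p = 0.0773) and without LHSR84 replicate 2 (0.61, adjusted p = 0.0833) (range 0.00334 to 0.121). Of the other 34, 28 had a log2 fold change below 0, from −0.69 for AUR3 up. The 95% intervals of the log2 fold change give the range of differences these libraries allow for each gene alone. Unlike the calls, they are not adjusted for the number of loci tested. For CYCB1;2 the interval was −0.66 to 0.061, for KNOLLE −0.70 to 0.17, for CDC20.1 −0.89 to −0.053 and for AUR3 −1.22 to −0.16. The last 2 exclude 0 although neither gene was called (limma adjusted p = 0.14 and 0.0925). The interval of CYCA2;1 was the widest, −0.78 to 1.15, and that of CYCD2;1 the narrowest, −0.12 to 0.31. A gene that was not called is thus not shown to be back at the control level. CDC20.1 passed lower with the replicate block (−0.47, adjusted p = 0.0381) (range 0.0381 to 0.539), and CYCB2;4 passed lower without CTRL replicate 1 (−0.60, adjusted p = 0.0323) (range 0.0323 to 0.68).

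**Figure D4:**
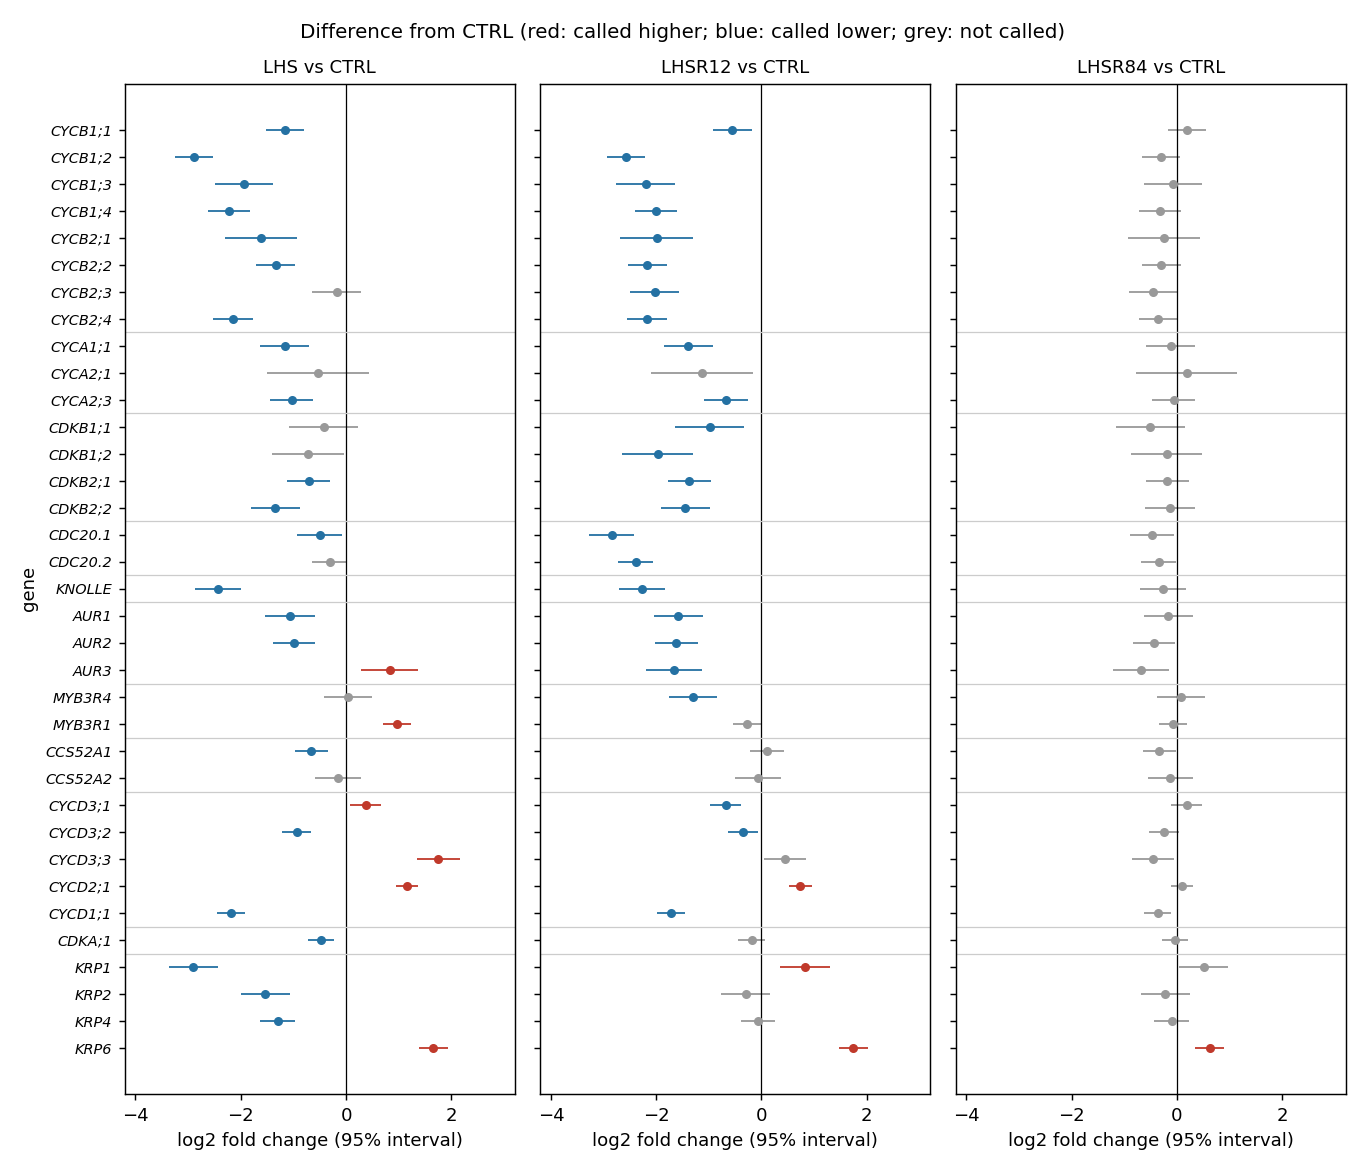
Log2 fold change of each of the 35 genes (rows) against CTRL in LHS, LHSR12 and LHSR84 (panels). Bars are 95% intervals from limma, not adjusted for the number of loci, and colour is for the call. Blue points fill most rows in LHS (22 genes lower) and LHSR12 (24 lower), and in LHSR84 the 1 called gene is KRP6.

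Other genes of the same pathways were counted from 9 lists. The shares of gene loci called higher and lower were 34.8% and 33.2% in LHS, 24.4% and 21.7% in LHSR12 and 8.94% and 5.32% in LHSR84, and several list counts, such as the 4 of 14 lower among anaphase-promoting complex genes in LHS, are near these shares. Of 20 spindle, checkpoint and cytokinesis genes, 10 fell and 3 rose in LHS, and all 20 fell in LHSR12 against CTRL. None was called in LHSR84, and 19 rose from LHSR12 to LHSR84. The median log2 fold changes were −0.43, −1.45 and −0.18 against CTRL in the 3 groups, and 1.30 from LHSR12 to LHSR84. At an unadjusted limma p under 0.05, 5 of the 20 were lower in LHSR84, and edgeR and DESeq2 called none. TPX2, a spindle assembly factor, was at 1295 and 1768 scaled reads in CTRL, 207 and 217 in LHS, 305 and 326 in LHSR12 and 1161 and 1521 in LHSR84, with LHS and LHSR12 far below the rest. Its log2 fold changes against CTRL were −2.83 and −2.26. TES, a kinesin of the phragmoplast, rose in LHS by 1.24 and had a log2 fold change of −2.05 from LHS to LHSR12. Of 8 tested of 10 further A-, B- and H-type cyclins, 3 rose and 2 fell in LHS, 6 fell in LHSR12 and none was called in LHSR84 (medians 0.24, −0.98 and −0.12). In LHSR84, 2 were lower at an unadjusted limma p under 0.05, and edgeR and DESeq2 called none. CYCB3;1 fell in LHSR12 (log2 fold change −1.86, SE 0.17, limma adjusted p = 5.66e-05) and CYCA3;2 in LHS (log2 fold change −2.31, SE 0.19, limma adjusted p = 1.47e-05).

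Of 12 replication genes, 7 rose and 3 fell in LHS. In this list, 4 fell and none rose in LHSR12, and none was called in LHSR84 (medians 0.56, −0.49 and −0.32). In LHSR84, 5 were lower at an unadjusted limma p under 0.05, and edgeR and DESeq2 called none. MCM5 of the replicative helicase was at 886 and 1156 scaled reads in CTRL, 20371 and 19864 in LHS, 956 and 999 in LHSR12 and 704 and 895 in LHSR84. Its rise in LHS (log2 fold change 4.31) stood apart from the list. The next largest called rise with libraries that do not overlap was that of PCNA2 (log2 fold change 1.04). TSO2, a ribonucleotide reductase subunit, fell in LHS (log2 fold change −2.04, SE 0.21, limma adjusted p = 4.8e-05). Of 9 RBR and E2F genes, 5 rose and 1 fell in LHS, 5 fell in LHSR12, and 1 fell in LHSR84, DEL2 (log2 fold change −1.19, SE 0.26, limma adjusted p = 0.0197). That call was lost in a fit of only the 2 groups compared, without CTRL replicate 1 and without either LHSR84 replicate (range 0.0132 to 0.118). Of 14 genes of the anaphase-promoting complex and its inhibitors, 7 rose and 4 fell in LHS, 1 rose and 7 fell in LHSR12, and 1 fell in LHSR84, APC10 (log2 fold change −0.86, SE 0.13, limma adjusted p = 0.00344), lost in a fit of only the 2 groups compared (adjusted p = 0.0964; range 8.85e-05 to 0.0964). CCS52B, a mitotic activator of that complex, was at −1.84 in LHSR12 against CTRL on the log2 scale. OSD1, an inhibitor of the complex, rose in LHS by 1.57 and had a log2 fold change of −2.97 from LHS to LHSR12. Against CTRL it was at −1.405 in LHSR12.

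CDK inhibitors outside the KRP genes above included the largest rises of these lists. Of 12, 4 rose and 5 fell in LHS, 5 rose and 1 fell in LHSR12, and 1 rose (SMR1) and 1 fell (SIM) in LHSR84. The call on SMR1 was lost in a fit of only the 2 groups compared and without LHSR84 replicate 1 (range 0.000356 to 0.078). That on SIM was lost in the same fit and without any one library other than CTRL replicate 2 (range 0.012 to 0.185). SMR5, an inhibitor known to respond to DNA damage and oxidative stress, was at 2.71 and 4.29 scaled reads in CTRL, 155 and 149 in LHS, 359 and 317 in LHSR12 and 15.4 and 6.90 in LHSR84. It rose in LHS (log2 fold change 5.11, SE 0.40, limma adjusted p = 1.03e-05) and LHSR12 (log2 fold change 6.26, SE 0.40, limma adjusted p = 9.72e-06) and fell to LHSR84 (log2 fold change −4.90, SE 0.40, limma adjusted p = 7.19e-05). SMR7, with the same known inducers, was at 19.0 and 15.0 scaled reads in CTRL, 22.0 and 11.2 in LHS, 209.9 and 137 in LHSR12 and 31.9 and 34.5 in LHSR84. It rose in LHSR12 (log2 fold change 3.25, SE 0.41, limma adjusted p = 0.00031). Of 7 CDK partners and regulators, 4 rose and 1 fell in LHS, 2 rose and 3 fell in LHSR12, and none was called in LHSR84. CDKD;1, a CDK-activating kinase, rose in LHS (log2 fold change 2.68, SE 0.17, limma adjusted p = 2.95e-06). In LHSR84, 3 of the 7 were lower at an unadjusted limma p under 0.05, and edgeR and DESeq2 called none. Of 5 further D-type cyclins, 1 rose and 2 fell in LHS, and none was called in LHSR12 or LHSR84, with CYCD6;1 at −2.26 in LHS. At an unadjusted limma p under 0.05, 1 of the 5 was lower in LHSR12 and 1 in LHSR84, and edgeR called 1 lower in LHSR12. MYB3R3 and MYB3R5, the tested 2 of 3 other MYB3R genes and known repressors of mitotic genes, rose in LHS by 1.39 and 1.48, and were not called against CTRL in LHSR12 or LHSR84 by limma, edgeR or DESeq2. At an unadjusted limma p under 0.05, 1 of them was lower in LHSR12. MYB3R5 passed lower there with the replicate block, without CTRL replicate 1 and without LHSR12 replicate 2 (range 0.0351 to 0.265).

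Markers of tissues that hold dividing cells were counted in the same way, and several of the meristem counts are near the shares over all gene loci. The summed level of 5 young leaf primordium markers was 4177 to 4248 scaled reads in CTRL, 2462 to 2743 in LHS, 2030.1 to 2192 in LHSR12 and 3403 to 3672 in LHSR84. Of these 5, 4 fell and 1 rose in LHS, all 5 fell in LHSR12, and 1 fell in LHSR84. For the rise, edgeR and DESeq2 called none of the 5 higher in LHS. GRF5, which promotes leaf cell division, was at 604 and 607 scaled reads in CTRL, 204 and 246 in LHS, 36.8 and 34.0 in LHSR12 and 229 and 262 in LHSR84. Of 6 root meristem markers, 3 fell in LHS, 2 rose and 2 fell in LHSR12, and 1 rose and 2 fell in LHSR84. Their sum was 1928 to 2044 in CTRL, 1473 to 1525 in LHS, 2770.2 to 2905 in LHSR12 and 2013 to 2142 in LHSR84. PLT1, a root stem cell factor, fell in LHS (log2 fold change −1.28, SE 0.28, limma adjusted p = 0.00321), LHSR12 (log2 fold change −2.04, SE 0.28, limma adjusted p = 0.000492) and LHSR84 (log2 fold change −1.11, SE 0.28, limma adjusted p = 0.032). SCR, a transcription factor of root patterning, rose in LHSR12 (log2 fold change 0.87, SE 0.10, limma adjusted p = 0.000249) and LHSR84 (log2 fold change 0.40, SE 0.10, limma adjusted p = 0.0394). The LHSR84 call on PLT1 was lost with DESeq2, in a fit of only the 2 groups compared and without any one of the 8 libraries (range 0.0222 to 0.175). That on SCR was lost with edgeR, with DESeq2, with the replicate block, in the same fit and without any one CTRL, LHS or LHSR84 library (range 0.0182 to 0.206). SHR, its partner in that role, rose in LHSR12 (log2 fold change 0.54, SE 0.11, limma adjusted p = 0.00528). Of 5 tested shoot meristem markers, 1 rose and 2 fell in LHS, 2 rose and 1 fell in LHSR12, and 1 rose in LHSR84. The marker that rose in LHS was WUS, at 0 in both CTRL libraries and at up to 7.10 scaled reads in LHS. For WUS, edgeR gave an adjusted p of 0.0584 (range 0.00145 to 0.0584), and DESeq2 called no shoot meristem marker higher there. The one that rose in LHSR84 was STM, a shoot meristem factor (log2 fold change 0.85, SE 0.23, limma adjusted p = 0.0479). It was lost in 13 of 17 alternatives, among them edgeR, DESeq2 and the absence of any one of the 8 libraries (range 0.0247 to 0.203). The sum of all 6 of that list was 2776 to 3752 in CTRL, 1212 to 1304 in LHS, 2230.1 to 2393 in LHSR12 and 2702 to 2829 in LHSR84. The part of tissue makeup in the falls of the 35 genes was not tested.

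Markers of mature tissue (differentiated root and mesophyll) and of the stomatal lineage were counted too. The 6 differentiated root markers summed to 5734 to 7071 in CTRL, 1262 to 1277 in LHS, 4122 to 4364 in LHSR12 and 4856 to 5134 in LHSR84. All 6 fell in LHS, 4 in LHSR12 and 1 in LHSR84. All 5 mesophyll markers fell in LHS, 3 fell in LHSR12 and 2 in LHSR84. Their sums were 563420.0 to 690730.0 in CTRL, 186200.0 to 220170.0 in LHS, 216810.0 to 242280.0 in LHSR12 and 444550.0 to 471080.0 in LHSR84. These sums hide unlike courses, as 3 of the 5 rose and 2 fell from LHSR12 to LHSR84. The 2 lower than CTRL in LHSR84 were LHCB1.1 and LHCA1, at log2 fold changes of −6.35 and −3.295 (limma adjusted p = 3.45e-05 and 0.000169). Of the 5 stomatal lineage markers 2 fell in LHS and 1 in LHSR12, and 1 rose in LHSR84. Their sums were 1537 to 1723 in CTRL, 868 to 1094 in LHS, 1400.4 to 1591 in LHSR12 and 1805 to 1854 in LHSR84. No marker was at 0 in both libraries of a group apart from WUS and CLV3: WUS in CTRL and in LHSR84, and CLV3 in LHS.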

How the data were processed

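RNA was measured in 8 libraries of wild type Arabidopsis seedlings, 2 in each of 4 groups taken from the sample titles. Libraries were strand-specific and made from TRIzol-extracted total RNA, per the labels. The build TAIR10 and the tools STAR 2.5.3a, CASAVA, DESeq2 1.14.1 and HTSeq 0.9.1 come from the submitters' processing notes, which give no role for each. The authors deposited a signal per locus and library. Each value equals a read number over a library factor, since 100% of the values in a library were whole multiples of its smallest step (tolerance 0.001). Reads were recovered for 7 libraries, 18.9 M to 28.3 M at gene loci. The reads of LHS replicate 1 were left out because its step, 1.00142, is close to 1. Its values too were 100% whole multiples of that step, so the omission was a choice.

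Loci with a mean of at least 1 were tested (27638, of which 24624 gene loci) with limma 3.58.1 in R 4.3.3. A single limma-trend fit (no robust estimation) on log2(value + 1) took all 8 libraries with group as the only term. The 5 comparisons were contrasts of it, two-sided, with Benjamini-Hochberg adjustment over all loci of a comparison and a threshold of 0.05. The tests were also run on simulated data in which far fewer loci differed than were called in LHS. There limma missed most of the smaller changes, so a gene not called can still differ. The 35 genes, the pathway and marker lists, the motifs and the comparisons were chosen with earlier results of these data known. All 35 genes are named. From the lists, up to 2 called genes with the largest rise and 2 with the largest fall per comparison were eligible, where the libraries of the groups did not overlap, and the heat check genes were added.

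Alternatives were a pseudocount of 0.1, no filter, a minimum mean of 10, TMM scaling, scaling on gene loci, a replicate block, edgeR 4.0.16 and DESeq2 1.42.0 on the recovered reads of 7 libraries (LHS then has 1), a fit of only the 2 groups compared, and each library left out. Positions, lengths and promoters are from the RefSeq TAIR10.1 annotation, which held all 35 genes. Transcript identity is from BLAST 2.17.0 with an E-value limit of 1e-10. Protein sequences were not used here.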

Additional observations from a re-analysis of the deposited data

How the results depend on the processing

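With 2 libraries a group and 18.9 M to 28.3 M reads at gene loci, limma depends on the spread shared across groups. In LHSR84 against CTRL, 1 gene was called lower with the replicate block (CDC20.1) and 1 without CTRL replicate 1, and no gene was called higher in a fit of only the 2 groups compared or without either LHSR84 replicate. With a library left out, the genes called higher and lower were 4 to 6 and 21 to 22 in LHS, 2 to 3 and 21 to 23 in LHSR12, 0 to 1 and 0 to 1 in LHSR84, 6 to 8 and 11 to 14 from LHS to LHSR12, and 19 to 23 and 2 to 4 from LHSR12 to LHSR84. Apart from the LHSR84 counts against CTRL and the 2 lower from LHSR12 to LHSR84 without LHSR12 replicate 1, counts of the 35 genes stayed within 1.5 times under every alternative run, and no call on them changed direction. Counts over gene loci moved more. In LHSR84 against CTRL, 2201 higher and 1311 lower became 233 and 43 in a fit of only the 2 groups compared, and 952 to 2307 and 407 to 1672 with a library left out. From LHSR12 to LHSR84, 4397 higher and 4759 lower became 2459 to 4850 and 2495 to 5470 in the same way. Of the 175 gene and comparison pairs, gene loci scaling lost 9 calls and gained 6, DESeq2 lost 8 and gained 1, edgeR lost 6 and gained 3, and leaving out LHSR12 replicate 1 lost 15 and gained 2. Of the gene loci called in LHSR84 against CTRL, 62.7% were higher, 74.4% with gene loci scaling, 84.4% in a fit of only the 2 groups compared and 58% to 72.1% with a library left out. Some list counts against CTRL moved by over 1.5 times with edgeR or DESeq2. In LHS, CDK inhibitors were 2 higher with both tools and 3 lower with DESeq2, and with DESeq2 2 anaphase-promoting complex genes were lower. In LHSR12, DESeq2 called 2 RBR and E2F genes lower, 1 CDK partner higher and 1 shoot meristem marker higher, and no CDK inhibitor or stomatal marker lower. In LHSR84, both tools called 3 differentiated root markers lower and DESeq2 called 1 mesophyll marker higher. In the paired check, run over all gene loci tested, same-numbered libraries did not deviate together (correlations from −0.0724 to 0.0537). In each of the 4 groups, though, replicate 2 was the higher for most of the 35 genes. The replicate block lost 3 calls of 175 and gained 4. Some fits that use the reads have 1 LHS library, which is assumed to vary like the others.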
